A study of Mus musculus with 6 samples.

Results

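The 8 genes described here encode the adhesion receptors that T cells use to enter tissues and stay in them: the integrin α subunits Itgae, Itga4, Itga1 and Itgal, the integrin β subunits Itgb7, Itgb1 and Itgb2, and the selectin ligand Selplg. They were taken by symbol from the deposited expression table of 14750 genes, in which each symbol matched 1 row, and all 8 were among the 12404 genes tested (at least 1 FPKM in at least 3 libraries). RNA sequencing measured total RNA of CD8+ T cells isolated from mouse spleen after hematopoietic stem cell transplantation (HSCT), which replaces the blood-forming cells of a host with those of a donor. The 6 libraries formed 2 groups by the label that names the strains: 3 labelled allo-HSCT, with a C57BL/6 donor in a Balb/c host and titles starting CD8_S, and 3 labelled syn-HSCT, with Balb/c as both donor and host and titles starting CD8_A. They are called allo-labelled and syn-labelled here. A separate strain label read Balb/c for all 6 libraries. Age, sex, conditioning of the host and time after transplantation are not given in the labels, nor whether libraries of one label are different mice, so p-values cover only the spread among these libraries, which may be technical.

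An integrin is a pair of an α and a β chain, and the pairing sets the ligand. The pair α4β7 binds MAdCAM-1 on vessels of the gut and is known as a route by which T cells reach the intestine in graft-versus-host disease. The β7 chain also pairs with αE (CD103), which binds E-cadherin and holds T cells in epithelia. α4β1 binds VCAM-1 on inflamed endothelium, α1β1 binds collagen IV, and αLβ2 (LFA-1) binds ICAM-1 in adhesion to endothelium and target cells. Selplg encodes PSGL-1, a mucin that binds selectins once it carries the right sugars and slows cells on the vessel wall. CD103 is also known on the cross-presenting dendritic cells of mouse spleen.

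Genes that differ between the 2 strains ran against the labels. H2-Ea-ps, an MHC class II gene that Balb/c mice transcribe and C57BL/6 mice do not, stood at 1955 ± 48.9 FPKM in the allo-labelled libraries and 4.76 ± 1.66 FPKM in the syn-labelled ones (SD, n = 3 each), with a ratio to its class II neighbour H2-Eb1 of 1.44 ± 0.0122 and 0.0982 ± 0.0284 in the same libraries. Ly6a, a surface antigen gene with higher expression on C57BL/6 T cells, was at 28.6 ± 1.75 and 332 ± 0.438 FPKM. Directions below thus compare libraries by their labels, and do not say which kind of transplant they came from. All 10 CD8+ T cell markers were present, and 7 of them fell, 2 rose and 1 was not called (5 fell and 4 rose after scaling to T cell genes, described further on), with summed levels of 2360 to 2507 FPKM in the allo-labelled libraries and 2914 to 2945 FPKM in the syn-labelled ones. Among all tested genes 33.0% fell and 34.7% rose (14.6% and 58.6% after that scaling). Recovered fragment totals were 15154000 to 16351000 in the allo-labelled libraries and 15310000 to 18715000 in the syn-labelled ones.

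Among the homing genes Itgae stood apart. It was 10.4-fold higher in the allo-labelled libraries, Itgb7 was 1.98-fold lower, and the other 6 moved by 1.13-fold to 1.64-fold. By limma, a linear model fitted to log2(FPKM + 1) of all tested genes, 2 of the 8 rose (Itgae and Itgb2) and 6 fell (Itgb7, Itga1, Itga4, Itgb1, Itgal and Selplg) at a Benjamini-Hochberg adjusted p under 0.05, although Itgal and Selplg turned higher when libraries were scaled to T cell genes. This has to be read against a background in which 67.6% of all tested genes were called, 34.7% higher and 33.0% lower. The groups did not overlap for any of the 8 genes, as for 72.3% of all genes tested. The median log2 difference of the 8 was -0.32, beside 0.0083 over all tested genes. Being called is therefore no distinction for these genes, and the sizes of the differences carry the description.

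**Figure D1:**
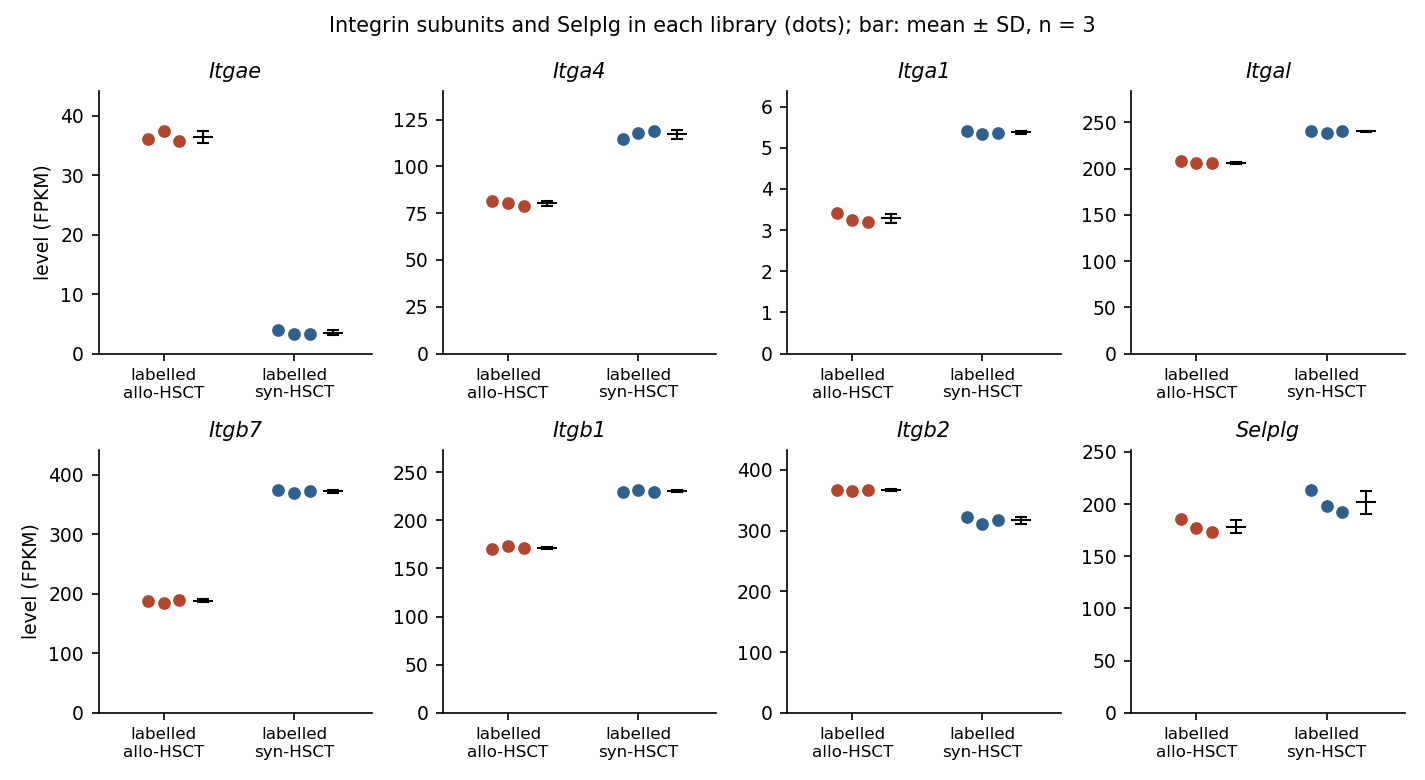
Level of each of the 8 genes (FPKM, each panel with its own axis from 0) in the 3 libraries labelled allo-HSCT (left, red) and the 3 labelled syn-HSCT (right, blue); the black bars give mean ± SD. Itgae is at 35.7 to 37.5 FPKM on the left and 3.26 to 3.94 FPKM on the right, and in no panel do the groups overlap.

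Itgae, the αE chain of CD103, was measured at 36.0, 37.5 and 35.7 FPKM in the allo-labelled libraries, against 3.94, 3.26 and 3.27 FPKM in the syn-labelled ones. The lowest of the first 3 libraries was far above the highest of the others. These levels rested on 2478 to 2808 recovered fragments per allo-labelled library and 270 to 280 per syn-labelled library. The log2 difference was 3.06 ± 0.07 (SE; limma adjusted p = 9.58e-08), the 189th largest of 12404 in absolute size; 1.52% of tested genes had one as large. In the GRCm38 annotation (GENCODE M21) Itgae is a protein-coding gene on the plus strand of chromosome 11, from 73090583 to 73147446. Haspin, a mitotic kinase gene, lies inside it on the other strand and shares 0 exon bases with it; Haspin went the other way, at 11.5 ± 0.88 FPKM in the allo-labelled libraries and 18.8 ± 0.693 FPKM in the syn-labelled ones (SD, n = 3 each).

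Markers of conventional dendritic cells moved with Itgae. Of 13 listed, 12 were tested and all 12 were higher in the allo-labelled libraries, where 34.7% of all tested genes were. Their list had a summed level of 836 to 891 FPKM against 109 to 115 FPKM in the syn-labelled libraries. Itgax, one of these 12, moved little, at 82.4 ± 1.69 and 66.1 ± 1.70 FPKM (SD, n = 3 each; log2 difference 0.31). It made up most of the syn-labelled sum. The other tested markers had log2 differences of 2.54 (Zbtb46) to 5.76 (Cd207). Xcr1, the chemokine receptor of cross-presenting dendritic cells, was at 60.4 ± 3.43 and 3.89 ± 0.193 FPKM, and Clec9a, their receptor for dead cells, at 65.4 ± 2.61 and 2.29 ± 0.256 FPKM in the same order (SD, n = 3 each). In the syn-labelled libraries only Cd209a of these 13 was listed at 0 in every library. The parts of such cells and of the CD8+ T cells themselves in the Itgae level were not tested. In bulk RNA more cells of a type cannot be told apart from more RNA per cell.

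Its partner Itgb7, the β7 chain shared by both gut and epithelial integrins, went the other way. It was at 188, 185 and 190.3 FPKM in the allo-labelled libraries and at 375, 369 and 373 FPKM in the syn-labelled ones. With a log2 difference of -0.98 ± 0.02 (SE; limma adjusted p = 6.89e-08) it fell the most of the 8 genes. It was the most abundant of them in the syn-labelled libraries and ranked 3 in the allo-labelled ones. Itga4, the α4 chain, was at 81.6, 80.5 and 78.6 FPKM against 115, 118 and 119 FPKM, which was 1.46-fold lower (log2 difference -0.54 ± 0.02, SE; limma adjusted p = 2.73e-06). Itgb1, the β1 chain that pairs with α4, α1 and many other α chains, was at 171, 173 and 171 FPKM in the allo-labelled libraries, against 229.8, 232 and 229.8 FPKM in the syn-labelled ones. Its fall was 1.34-fold (log2 difference -0.42 ± 0.02, SE; limma adjusted p = 1.56e-06).

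In the same annotation the other 7 members are protein-coding genes: Itga4 on chromosome 2 (79255426 to 79333123, plus strand), Itga1 on chromosome 13 (114953096 to 115101964, minus), Itgal on chromosome 7 (127296260 to 127335138, plus), Itgb7 on chromosome 15 (102215995 to 102231944, minus), Itgb1 on chromosome 8 (128685654 to 128733200, plus), Itgb2 on chromosome 10 (77530252 to 77565708, plus) and Selplg on chromosome 5 (113818536 to 113832644, minus).

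The start regions of Itga4, Itgb7 and Itgb1, which fell together and make up α4β7 and α4β1, are shown because they can be set beside each other in one assembly. RefSeq entries (GRCm38.p6) matched 4 of the 8 members: Itga4, Itgb7, Itgb1 and Itga1. Each line gives the 250 bases before the annotated start, 5′ to 3′ on the strand of the gene. Capitals mark matches, on either strand, to TGTGGT (bound by RUNX factors), AGGAAG (ETS factors), CAGACA (SMAD factors) and GGGCGG (Sp and Klf factors).
Itga4, chr2:79255176-79255425, plus strand: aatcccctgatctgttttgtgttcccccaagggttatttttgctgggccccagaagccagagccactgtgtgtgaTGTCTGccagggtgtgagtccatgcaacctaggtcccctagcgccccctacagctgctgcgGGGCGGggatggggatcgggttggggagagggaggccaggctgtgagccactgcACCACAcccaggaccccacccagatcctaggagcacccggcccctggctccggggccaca
Itgb7, chr15:102231936-102232185, minus strand: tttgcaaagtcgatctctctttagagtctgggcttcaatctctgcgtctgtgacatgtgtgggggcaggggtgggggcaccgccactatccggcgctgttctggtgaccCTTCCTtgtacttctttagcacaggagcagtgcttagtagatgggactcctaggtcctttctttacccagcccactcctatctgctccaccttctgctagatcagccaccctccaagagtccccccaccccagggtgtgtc
Itgb1, chr8:128685404-128685653, plus strand: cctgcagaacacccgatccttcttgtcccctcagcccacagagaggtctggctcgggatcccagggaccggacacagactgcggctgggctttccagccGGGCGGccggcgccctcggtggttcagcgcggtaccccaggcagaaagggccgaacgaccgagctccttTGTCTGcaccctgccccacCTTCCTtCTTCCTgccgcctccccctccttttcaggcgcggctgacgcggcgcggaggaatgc
The Itga4 window held the RUNX letters 60 bases before the start, the Sp letters at 114 and the SMAD letters at 175. The Itgb7 window held a single match, to the ETS letters, 141 bases before the start. Itgb1 held the ETS letters at 63 and at 56, the SMAD letters at 82 and the Sp letters at 151. No matches overlapped in these windows. Of 32851 windows of the same length, 14.0% held the RUNX letters, 29.5% the ETS letters, 17.1% the SMAD letters and 32.7% the Sp letters. A match of letters is not a binding site.

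Because the chains compete for partners, ratios within a library were compared. A ratio of FPKM values is not changed by 1 scaling factor per library, but quantile normalization can change it. The ratio of Itgae to Itgb7 was 0.194 ± 0.00769 in the allo-labelled libraries and 0.00937 ± 0.000985 in the syn-labelled ones (SD, n = 3 each). Itgae thus made up 31.2% ± 0.563 of the summed FPKM of Itgae and Itga4, the α partners of β7, against 2.89% ± 0.371. Of the β partners of α4, Itgb7 made up 52.3% ± 0.489 in the allo-labelled libraries and 61.8% ± 0.292 in the syn-labelled ones, with Itgb1 as the rest. The ratio of Itga4 to Itgb7 was higher, at 0.427 ± 0.0121 against 0.315 ± 0.00803, and that of Itga4 to Itgb1 lower, at 0.468 ± 0.00928 against 0.509 ± 0.00994. Transcript shares are not shares of surface receptor.

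**Figure D2:**
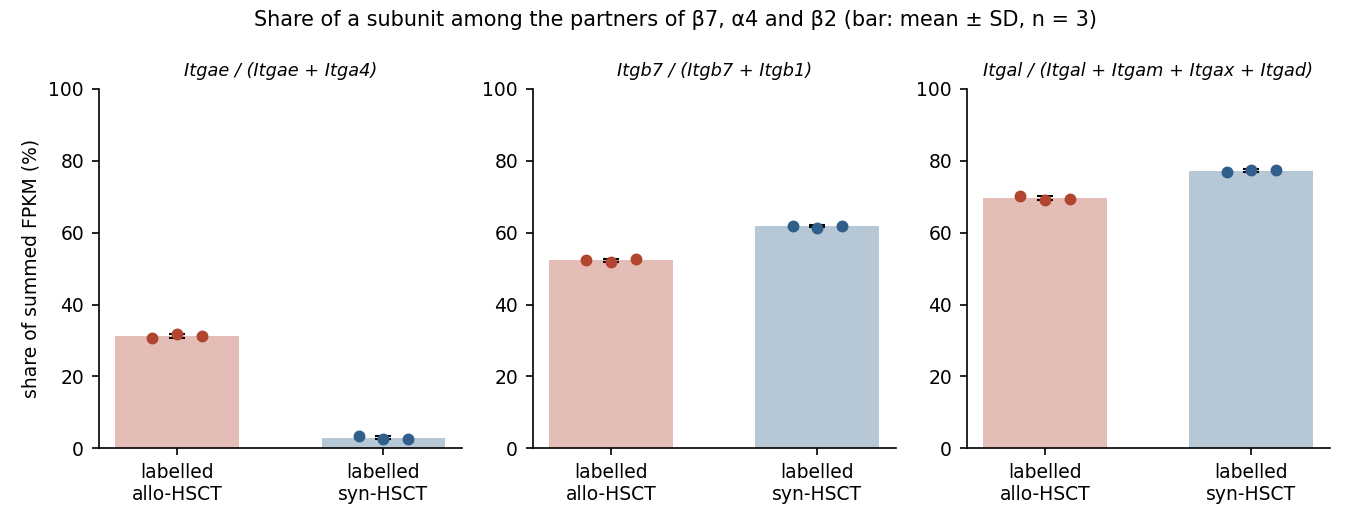
Share of Itgae in Itgae plus Itga4 (left), of Itgb7 in Itgb7 plus Itgb1 (middle) and of Itgal in the 4 α chains of β2 (right), in percent of summed FPKM per library; bars are group means with SD and dots are libraries (n = 3 each, labelled allo-HSCT in red, labelled syn-HSCT in blue). The Itgae share is 31.2% in the allo-labelled libraries and 2.89% in the syn-labelled ones, and the other 2 shares are lower in the allo-labelled libraries.

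Of the 6 ratios of partner chains compared, none overlapped between the groups. Single genes did not overlap for 72.3% of all tested genes, and no such share was computed for ratios of other genes. Non-overlap is therefore no distinction of these pairs. The differences of the 6 ratios in log2((a + 1)/(b + 1)) were 4.04 for Itgae to Itgb7, 0.44 for Itga4 to Itgb7, -0.12 for Itga4 to Itgb1, -0.56 for Itgb7 to Itgb1, -0.15 for Itga1 to Itgb1 and -0.43 for Itgal to Itgb2. With a pseudocount of 0.1 or 0.01 in place of 1, the Itga1 to Itgb1 difference was -0.27 or -0.28. A two-sided exact permutation test over libraries gave p = 0.1 for each, also after adjustment over the 6, which is the smallest value that 3 against 3 libraries allow. This test therefore cannot reach 0.05 in this design. The pair α4 and β1 was the closest to moving together, with ratios of 0.460 to 0.478 in the allo-labelled libraries and 0.499 to 0.519 in the syn-labelled ones.

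Itga1, the α1 chain of the collagen receptor VLA-1 that marks resident memory T cells, was the least abundant of the 8 in the allo-labelled libraries. It was at 3.41, 3.24 and 3.21 FPKM there and at 5.42, 5.35 and 5.37 FPKM in the syn-labelled libraries, a 1.64-fold fall (log2 difference -0.57 ± 0.05, SE; limma adjusted p = 7.35e-05). Itga1 and Itgae, which both serve retention in tissue, thus differed in opposite directions. The length of Itga1, with 18599 exon bases, put 904 to 988 and 1543 to 1870 fragments behind them. Itga1 shares 685 exon bases with Gm49395, a gene model on the same strand at 0.42 ± 0.0356 and 0.831 ± 0.105 FPKM (SD, n = 3 each), so a small part of its reads is uncertain. The same holds for Itga4, which shares 1124 of 13978 exon bases with Cerkl on the opposite strand, at 0.488 ± 0.0657 and 0.612 ± 0.222 FPKM (SD, n = 3 each).

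The 2 chains of LFA-1 were among the most abundant of the 8 and moved little, in opposite directions. Itgb2, the β2 chain, was at 367, 364 and 367 FPKM in the allo-labelled libraries, against 322, 311 and 317 FPKM in the syn-labelled ones. This was 1.16-fold higher (log2 difference 0.21 ± 0.02, SE; limma adjusted p = 0.0001). Itgal, the αL chain, was at 208, 206 and 206 FPKM against 240.4, 239 and 241 FPKM, or 1.16-fold lower (log2 difference -0.22 ± 0.02, SE; limma adjusted p = 3.42e-05). The ratio of Itgal to Itgb2 was 0.564 ± 0.00304 in the allo-labelled libraries and 0.759 ± 0.0114 in the syn-labelled ones (SD, n = 3 each).

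The β2 chain also pairs with αM, αX and αD, which myeloid cells carry. Itgax, the αX chain, was at 82.4 ± 1.69 FPKM in the allo-labelled libraries and 66.1 ± 1.70 FPKM in the syn-labelled ones (SD, n = 3 each) and rose (limma adjusted p = 6.46e-05). Itgad was at 3.23 and 1.11 FPKM and rose, and Itgam was at 4.22 and 3.51 FPKM and was not called, except after scaling to the T cell genes, when it was higher (limma adjusted p = 0.0118). As a share of these 4 α chains, Itgal was 69.7% ± 0.578 in the allo-labelled libraries and 77.3% ± 0.42 in the syn-labelled ones. Macrophage and neutrophil markers were higher beside this, with summed levels of 797 to 816 against 56.0 to 58.8 FPKM for 11 macrophage genes and 1935 to 2051 against 93.9 to 103 FPKM for 10 neutrophil genes. Their part in the β2 values was not tested. Of the other marker lists, all 5 plasmacytoid dendritic cell and all 5 tested erythroid genes rose, as did the 1 tested mast cell gene and 3 of 4 tested platelet genes. Among NK cell genes 2 rose and 1 fell, among CD4+ T cell genes 2 rose and 2 fell, the 1 tested stromal gene fell and the 1 tested B cell gene was not called. Of all tested genes 34.7% rose and 33.0% fell, and some of these lists had only 1 tested gene.

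Selplg, the selectin ligand, had the smallest difference and the widest relative spread among the abundant members. It was at 185, 177 and 173 FPKM in the allo-labelled libraries and at 214, 199 and 193 FPKM in the syn-labelled ones. The groups were separate but close, with the highest allo-labelled library at 185 and the lowest syn-labelled one at 193 FPKM. The log2 difference was -0.17 ± 0.04 (SE; limma adjusted p = 0.0112), and after quantile normalization it was -0.085 and not called (limma adjusted p = 0.071; range over 18 alternatives 5.40e-05 to 0.071), where 68.8% of all tested genes were called, 30.2% higher and 38.6% lower.

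By level per kilobase, the order in the allo-labelled libraries was Itgb2, Itgal, Itgb7, Selplg, Itgb1, Itga4, Itgae and Itga1. Only Itgb7 and Selplg overlapped between neighbours there, at 185 to 190.3 and 173 to 185 FPKM. In the syn-labelled libraries the order was Itgb7, Itgb2, Itgal, Itgb1, Selplg, Itga4, Itga1 and Itgae, and no neighbours overlapped. Itgae was above 88.4% of tested genes in the allo-labelled libraries and above 32.5% in the syn-labelled ones, while the 6 most abundant members were above at least 95.5% of tested genes in both. SDs within a group were 0.42% to 11.1% of the mean, the highest being that of Itgae in the syn-labelled libraries.

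The size of the small differences depends on what the libraries are scaled to. When each library was divided by the geometric mean of 5 T cell genes (Cd3d, Cd3e, Cd3g, Cd247 and Cd8b1), which was lower in the allo-labelled libraries by a log2 difference of -0.35, the median of all tested genes moved to 0.31. Itgae (3.37), Itgb2 (0.56), Selplg (0.18) and Itgal (0.14) were then called higher; of all tested genes 73.2% were called under that scaling, 58.6% higher and 14.6% lower. Itgb7 (-0.63), Itga1 (-0.29), Itga4 (-0.19) and Itgb1 (-0.072) were called lower. Itgal and Selplg thus changed sign. Taken relative to the median gene under that scaling, Itgal was at -0.17 and Selplg at -0.13. Itgae, Itgb7, Itga1, Itga4, Itgb1 and Itgb2 kept their direction and their call under all 18 alternatives.

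**Figure D3:**
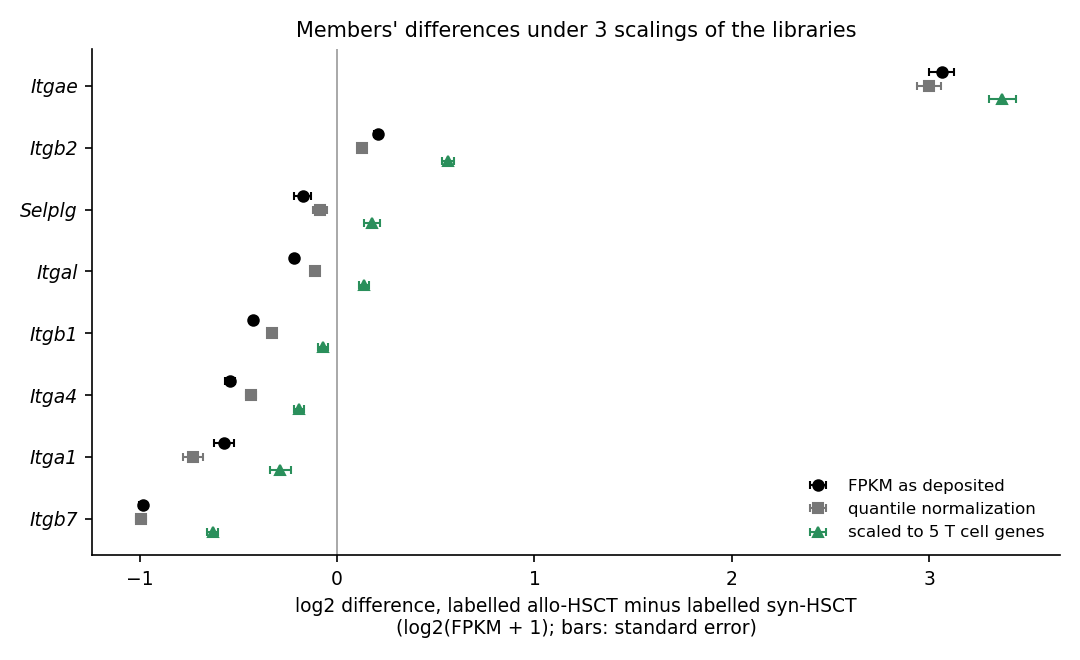
Log2 difference of each of the 8 genes (allo-labelled minus syn-labelled libraries, on log2(FPKM + 1), with standard error) for the values as deposited (circles), after quantile normalization (squares) and after division by 5 T cell genes (triangles). Itgae lies at 3.00 to 3.37 and Itgb7 at -0.99 to -0.63 under all 3 scalings, while Itgal and Selplg cross 0 when scaled to the T cell genes.

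The remaining integrin genes were measured for comparison, and on the log2(FPKM + 1) scale the largest difference among the 12 tested was in Itgb3. Of 20 other subunits 12 were tested, and 7 rose, 4 fell and 1 was not called, with a median log2 difference of 0.26. Among all tested genes 34.7% rose and 33.0% fell. Scaled to the T cell genes, 8 of these subunits rose and 3 fell, where 58.6% and 14.6% of all genes did. Itgb3, the β3 chain that pairs with αV in lymphocytes and with the platelet chain αIIb, was at 5.64 ± 0.182 FPKM in the allo-labelled libraries and 49.1 ± 1.03 FPKM in the syn-labelled ones (SD, n = 3 each), or 8.70-fold lower (limma adjusted p = 1.20e-08). Its α partner Itgav was at 5.91 and 5.21 FPKM and rose (limma adjusted p = 0.0329), a call lost after median-of-ratios scaling (limma adjusted p = 0.0561) and after quantile normalization (0.511). The platelet genes Itga2b, Ppbp and Gp9 rose, at 1.10, 2.57 and 2.02 FPKM against 0.169, 0.0164 and 0.145 FPKM, and so did not follow Itgb3. Among α partners of β1, Itga2 and Itga3, receptors for collagen and laminin, fell to 2.57 and 1.46 FPKM in the allo-labelled libraries, against 5.85 and 5.35 FPKM. Itga6, a laminin receptor chain, rose to 10.1 FPKM, against 7.94 FPKM, and Itga5, the fibronectin receptor chain, to 2.49 FPKM, against 0.405 FPKM. Itga8 was at 1.55, 1.78 and 2.11 FPKM in the allo-labelled libraries and was listed at 0, 0.00751 and 0 FPKM in the syn-labelled ones. Itga9 was under the filter, at 0.567 and 0.152 FPKM. Itga4 remained the main α partner of β1 among the 9 listed, with 74.0% ± 0.573 of their summed FPKM against 79.5% ± 0.755.

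Genes that act on integrins from inside the cell had calls in both directions. Their list holds activators and also genes that restrain integrins, such as Sharpin, Dok1, Itgb1bp1 and Sipa1. Its counts thus give no direction of activation. Of 31 listed, 29 were tested, and 13 rose, 10 fell and 6 were not called, with a median of 0.098, where 34.7% of all tested genes rose and 33.0% fell. Scaled to the T cell genes, 20 rose and 3 fell, where 58.6% and 14.6% of all genes did. Rasgrp2, which encodes the exchange factor that loads Rap1 with GTP, was at 34.0 ± 0.108 and 53.5 ± 0.37 FPKM and fell, while Rasgrp1, a related factor acting on Ras, was at 47.2 ± 1.41 and 29.4 ± 0.617 FPKM and rose (SD, n = 3 each). Cyth1, a β2-binding exchange factor, was at 47.2 and 29.6 FPKM and rose, and Cytip, which binds and restrains it, was at 41.6 and 65.9 FPKM and fell. Vav1 rose to 70.0 FPKM, against 47.5 FPKM, and Parvg, a parvin that links integrins to actin, to 98.8 FPKM, against 58.6 FPKM. Fermt3, the kindlin that binds the tails of β1, β2 and β3 in blood cells, was at 123 ± 4.88 FPKM in the allo-labelled libraries and 123.5 ± 1.04 FPKM in the syn-labelled ones (SD, n = 3 each) and was not called (limma adjusted p = 0.985; higher after scaling to the T cell genes); it was chosen for mention after its values were seen.

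Genes around the building of selectin ligands also had calls in both directions. Their list holds enzymes, the carrier gene Slc35c1 and genes of selectin-binding proteins such as Spn. Of 21 listed, 20 were tested, and 7 rose, 9 fell and 4 were not called, with a median of -0.061, against 34.7% higher and 33.0% lower among all tested genes. Scaled to the T cell genes, 12 rose and 6 fell, against 58.6% and 14.6% of all genes. Gcnt1, which starts the branched sugar that selectins need, fell to 1.80 ± 0.13 FPKM in the allo-labelled libraries, against 5.44 ± 0.328 FPKM in the syn-labelled ones (SD, n = 3 each). Slc35c1, the carrier of GDP-fucose into the Golgi, was at 29.2 and 40.0 FPKM, B4galt5 at 31.3 and 54.9 FPKM and Galnt1 at 28.8 and 49.2 FPKM, and each fell, although Slc35c1 was not called after scaling to the T cell genes (limma adjusted p = 0.0916). St3gal3, a sialyltransferase, rose to 6.28 FPKM, against 2.56 FPKM. Spn, which encodes CD43, another selectin-binding mucin of T cells, was at 143 ± 0.713 and 301 ± 0.824 FPKM (SD, n = 3 each; 2.10-fold lower), a larger fall than that of Selplg.

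Ligands of these integrins, and the selectins, were mostly low. Of 18 listed, 7 were in the table and 5 were tested, of which 4 rose and 1 (Icam2) fell, where 34.7% of all tested genes rose and 33.0% fell. Scaled to the T cell genes, 4 rose and 0 fell, as Icam2 lost its call, where 58.6% and 14.6% of all genes did. Icam1, the ligand of LFA-1, was at 39.3 ± 1.35 FPKM in the allo-labelled libraries and 15.1 ± 0.732 FPKM in the syn-labelled ones, and Vcam1, the ligand of α4β1, at 6.11 ± 0.377 and 1.13 ± 0.163 FPKM in the same order (SD, n = 3 each). Cdh1, the E-cadherin that αEβ7 binds, was under the filter at 0.548, 0.615 and 0.707 FPKM, against values of 0, 0.181 and 0.0818 FPKM. Dendritic cells and macrophages also express Icam1 and macrophages Vcam1, and their markers were higher beside these genes, as given above. The part of these cells in the Icam1 and Vcam1 levels was not tested.

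Genes of tissue residency were called in both directions, as all tested genes were (34.7% higher, 33.0% lower). Their list holds genes that resident cells raise and genes that they turn down. It therefore gives no direction of residency when counted as a whole. Of 25 residency genes 23 were tested, and 11 rose, 8 fell and 4 were not called, with a median of 0.093; scaled to the T cell genes, 14 rose and 7 fell (58.6% and 14.6% of all genes). Cxcr6, a chemokine receptor of resident cells, fell to 68.4 ± 1.93 FPKM in the allo-labelled libraries, against 133 ± 0.837 FPKM in the syn-labelled ones, and Bhlhe40 to 39.8 ± 0.674 FPKM, against 119 ± 0.243 FPKM (SD, n = 3 each). S1pr1, the receptor for exit from tissue that resident cells lose, was at 42.5 and 82.1 FPKM and fell. S1pr5, another receptor of that family in the list, was at 25.1 and 2.04 FPKM and rose. Tcf7 and Eomes, transcription factor genes that resident cells turn down, were at 117 and 39.8 FPKM against 16.3 and 12.9 FPKM and rose, as did Rgs2, at 42.4 against 7.16 FPKM. TGF-β and retinoic acid are the known signals for Itgae and for α4β7 on T cells. Their list holds the ligand gene Tgfb1, receptors and mediators, and also the inhibitors Smad7, Ski and Skil. Counts over it thus give no direction of signalling. Of 14 tested, 11 rose and 3 (Smad2, Smad3 and Rarg) were not called, with a median of 0.47, beside 34.7% of all tested genes called higher. Scaled to the T cell genes all 14 rose, where 58.6% of all genes did. Rara, a retinoic acid receptor, was at 18.7 ± 1.38 and 5.89 ± 0.148 FPKM, and Smad7, an inhibitor that TGF-β induces, at 14.5 ± 0.686 and 7.56 ± 0.755 FPKM (SD, n = 3 each). Rxra was at 12.7 and 7.12 FPKM, Ski at 18.3 and 11.5 FPKM, Skil at 7.79 and 4.36 FPKM and Smad4 at 28.0 and 20.2 FPKM, and each rose. Other cells express these genes too, and 12 of 12 tested dendritic cell and 9 of 10 neutrophil markers rose beside them, with medians of 3.55 and 3.96; their part was not tested.

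**Figure D4:**
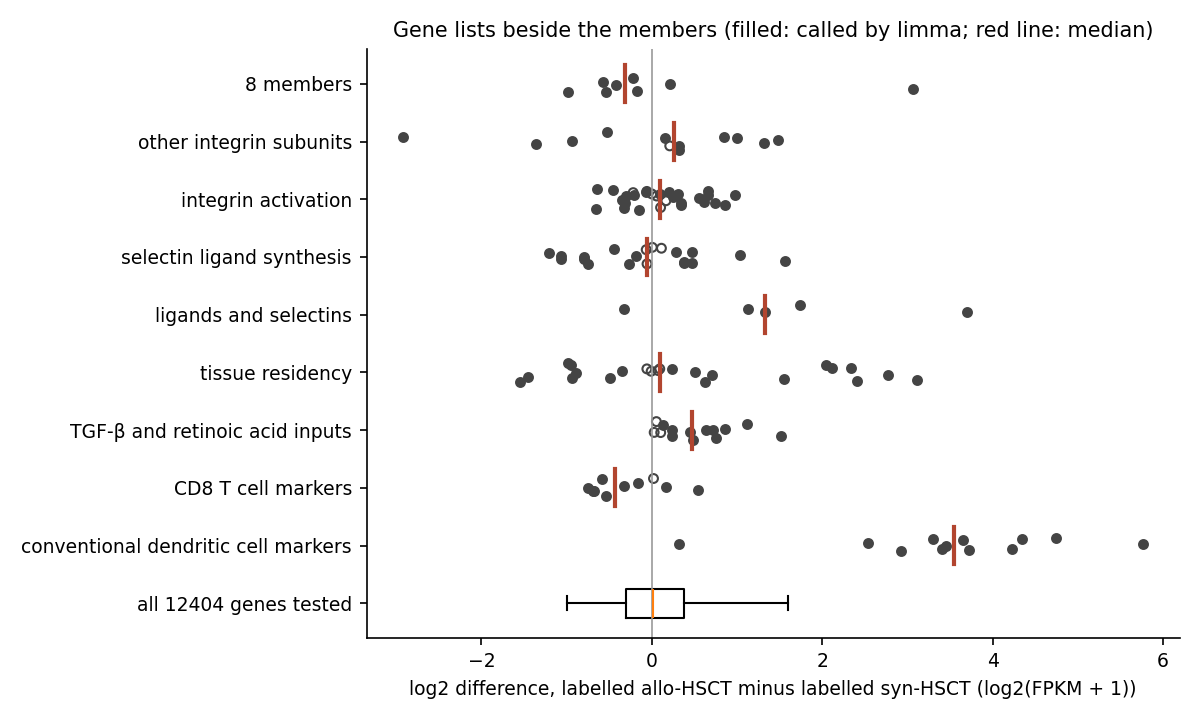
Log2 differences (allo-labelled minus syn-labelled libraries, on log2(FPKM + 1)) of the 8 members, of the lists of related genes and of 2 marker lists; filled dots passed limma's test, open dots did not, red lines are list medians, and the box at the bottom spans the quartiles of all 12404 tested genes with whiskers at the 5 and 95 percentiles. Itgae lies among the dendritic cell markers (median 3.55) and apart from the other 7 members.

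The genes whose levels were most like those of a member over the 6 libraries, by root mean square difference of log2(FPKM + 1), were Rgs10 for Itgae (0.0744), Ywhah for Itga4 (0.0446), Tmem41b for Itga1 (0.0412), Hnrnpa1 for Itgal (0.0405), Cd48 for Itgb7 (0.0787), Calm2 for Itgb1 (0.0376), Rpl10 for Itgb2 (0.0433) and Ms4a4b for Selplg (0.0536). Rgs10, a regulator of G protein signalling, was at 36.1 FPKM in the allo-labelled libraries and 3.71 FPKM in the syn-labelled ones. Next to Itgae followed Itpa-ps1, a pseudogene, and Plcb2, at 0.0918 and 0.179. Next to Itgb7 came the T cell receptor constant gene Trbc1 and the vimentin gene Vim, at 0.154 and 0.158. The 6 libraries form 2 separate groups, so this measure is a description of level and group difference.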

How the data were processed

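Per the labels' protocols, splenic CD8+ T cells were isolated with a kit, ribosomal RNA was depleted from total RNA, and NEBNext Ultra libraries were sequenced. The deposited values are FPKM (fragments or reads per kilobase, scaled to library size) in 1 table of 14750 genes, and whether reads were paired is not given in the sources used here. The submitters' processing notes name limma, with no version or role; aligner, counter and build are not given in the sources used here. The larger group mean of every gene was at least 0.5 FPKM. Values times the exon-union length in GENCODE M21 (GRCm38) were whole multiples of a constant per library (tolerance 0.1) for 94.3% to 94.6% of values above 0, and for all 8 members, which gave the fragment totals. Levels per kilobase rest on that union length. Between libraries of a group, the median squared difference was 2.38 to 2.62 times what counting alone gives, so errors are SDs or SEs over libraries.

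Genes at 1 FPKM or more in at least 3 of 6 libraries were fitted with limma 3.58.1 in R 4.3.3 (log2(FPKM + 1), trend), with Benjamini-Hochberg adjustment over 12404 genes; log2 differences understate changes of low genes, and folds are ratios of mean FPKM. The fit was tested on simulated data. The design had been written for either counts or FPKM. Alternatives were each library left out, the replicate number as a block, other filters, pseudocounts and scalings, removal of receptor, haemoglobin and mitochondrial genes, other variance priors and limma's voom on recovered fragments. Members, lists, motifs and tests were chosen with earlier results of these data known, and named genes follow a rule: the 8 members, up to 6 genes per list with the smallest adjusted p and a group mean of at least 5 FPKM, list genes whose protein pairs with a member, and the 3 genes nearest to each member in level. Genes outside it (Fermt3, Itga2b, Ppbp, Gp9, Cdh1, S1pr5, Haspin, Gm49395, Cerkl and those of a list not called) were chosen after their values were seen. Tgfb1, Sharpin, Dok1, Itgb1bp1 and Sipa1 are named only for what they do. The value of 1 gene of the ligand list is not reported here.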

Additional observations from a re-analysis of the deposited data

How the results depend on the processing

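Over the 8 genes and 18 alternatives, 141 of 144 values kept direction and call. The exceptions were Selplg after quantile normalization (-0.085, limma adjusted p = 0.071) and, after scaling to 5 T cell genes, Itgal at 0.14 and Selplg at 0.18, both reversed and called higher; the cause was not tested. That scaling called 4 members and 7274 genes higher and 1808 lower, with 20 higher and 3 lower in the integrin activation list, 12 higher in the selectin ligand list and 0 ligand genes lower (0 also at an unadjusted p under 0.05; voom on recovered fragments called 1 lower). By its construction the allo-labelled libraries move up by a log2 factor of the size by which those 5 genes were lower (-0.35). With a filter at 5 FPKM fewer genes were tested: 2817 were higher, as were 3 of the other integrin subunits (2 lower) and 4 of the selectin ligand list. Without a pseudocount of 1 the log2 difference of the Itgae to Itgb7 ratio was 4.34 (at 0.1) and 4.37 (at 0.01), and that of Itga1 to Itgb1 -0.27 and -0.28, since the pseudocount shrinks low genes. The replicate number as a block called 4164 genes higher and 3949 lower and changed no member's call. Deviations of same-numbered libraries correlated at 0.0627, 0.122 and -0.083. The same number was the best match for allo-labelled libraries 1 and 2 but not for 3. Correlations this weak cannot settle whether the numbers pair libraries. Leaving out any 1 library changed no call of a member. Limma's voom on recovered fragments called 4077 genes higher and 3904 lower of 11456. DESeq2 and edgeR were not run, as the table holds no counts. Genes under 0.5 FPKM in both groups are outside the table.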
